A study of Homo sapiens with 76 samples.

Results

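CENPE and CCP110 were the mitosis and centriole genes of the 61-gene TGx-DDI qPCR panel, taken as the rows carrying those gene names, so that 2 of 61 panel genes are described here. Both were measured by RT-qPCR in 76 samples of TK6, an established human B lymphoblastoid cell line grown in suspension. The cells were exposed to 29 treatments, of which 14 induce DNA damage (DDI) and 15 do not (non-DDI), or to 1 of 9 vehicle conditions, with 2 replicates in each. The labels give a time of 4 h for every sample, but by the study the heat shock itself lasted minutes, not 4 h. By the study, the panel had been assembled in an earlier experiment with the same 28 agents, concentrations and exposure time in the same cells. Its genes were chosen because they told DDI from non-DDI agents there. A difference between the classes in these genes thus repeats the contrast by which they were chosen and is not independent of it.

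The DDI treatments were camptothecin (CPT, 125 nM), etoposide (ETO, 200 nM), cisplatin (80 µM), methyl methanesulfonate (MMS, 40 µg/mL), 5-fluorouracil (5-FU, 25 µg/mL), methotrexate (MTX, 100 µM), arabinofuranosyl cytidine (AraC, 50 µM), hydroxyurea (0.5 mM), bleomycin (10 µg/mL), H2O2 (80 µM), gamma rays (4 Gy), CdCl2 (50 µM), K2CrO4 (100 µM) and NaAsO2 (20 µM). The non-DDI treatments were the antimitotics vinblastine (200 ng/mL), colchicine (250 ng/mL), paclitaxel (50 nM) and docetaxel (50 nM), the histone deacetylase inhibitors trichostatin A (TSA, 20 ng/mL), apicidin (1 µg/mL), oxamflatin (1 µM) and HC toxin (20 ng/mL), the endoplasmic reticulum agents tunicamycin (2.5 µg/mL) and thapsigargin (250 nM), antimycin A (100 µM), 2-deoxy-D-glucose (2-DG, labelled 20 µM), heat shock (47 °C) and ethanol (EtOH) at 2% and 4%. The vehicles were DMSO, H2O, medium, EtOH, MeOH, acetonitrile and NaOH, with a further MeOH condition for MMS and a further H2O condition for NaAsO2. Doses differ between agents in molarity and in potency, so agents are set side by side at 1 dose each, and 1 cell line stands for all results.

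CENPE encodes a kinesin motor of the kinetochore that carries chromosomes to the metaphase plate, and its transcript is made mainly late in the cell cycle, from G2 into mitosis. CCP110 encodes CP110, a protein that caps the distal end of centrioles, takes part in centriole duplication and holds back the growth of primary cilia. AraC and hydroxyurea stop DNA synthesis, AraC as a nucleoside analog and hydroxyurea by inhibiting ribonucleotide reductase, whereas vinblastine and colchicine block microtubule assembly and the taxanes paclitaxel and docetaxel stabilise microtubules, so that cells are held in mitosis.

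The promoters are shown because elements of this region set the cell cycle timing of many mitotic genes. Each sequence runs from 250 bases before to 50 bases after the gene start in RefSeq (GRCh38.p14), at chr4:103198294-103198593 on the minus strand for CENPE and chr16:19523692-19523991 on the plus strand for CCP110. Capitals mark TTTAAA in CENPE and CCGGAAG in CCP110.
CENPE: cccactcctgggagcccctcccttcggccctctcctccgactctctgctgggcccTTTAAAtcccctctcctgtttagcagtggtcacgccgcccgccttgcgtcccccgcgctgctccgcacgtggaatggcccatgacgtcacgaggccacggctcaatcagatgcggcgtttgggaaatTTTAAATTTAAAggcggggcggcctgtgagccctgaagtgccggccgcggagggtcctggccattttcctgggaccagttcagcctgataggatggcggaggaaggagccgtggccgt
CCP110: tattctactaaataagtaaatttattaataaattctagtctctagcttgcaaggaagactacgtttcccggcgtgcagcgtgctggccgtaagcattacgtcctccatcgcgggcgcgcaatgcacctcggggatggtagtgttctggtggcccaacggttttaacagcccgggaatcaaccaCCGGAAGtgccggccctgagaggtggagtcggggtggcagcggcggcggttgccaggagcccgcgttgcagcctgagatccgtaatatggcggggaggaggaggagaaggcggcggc

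Both strands were searched for TTTGAA and TTTAAA (2 spellings of the cell cycle genes homology region), CCAAT (the core bound by NF-Y), TTTNNCGC (an E2F motif) and CCGGAAG (an ETS motif). The CENPE window held TTTAAA 3 times, beginning 195, 68 and 62 bases before the start, the last 2 of them side by side without overlap. TTTAAA was found in 12.2% of 35116 promoter windows of this length. The CCP110 window held CCGGAAG once, 67 bases before the start, a match found in 10.3% of windows. None of the other motifs was found in either window, against 15.2% of windows with TTTGAA, 34.6% with CCAAT and 6.89% with TTTNNCGC, and CCGGAAG was not found for CENPE nor TTTAAA for CCP110. These matches describe letters only.

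A level is given here as minus ΔCq, the mean Cq of the reference genes HPRT and GUSB minus the Cq of the gene, in PCR cycles on a log2 scale, so that a higher value means more template. A log2 fold change is the mean level of a treatment minus that of its own vehicle. Calls were made with limma at an adjusted p (Benjamini-Hochberg over 61 genes) under 0.05. All values of the panel lay under 40 cycles. CENPE had a mean Cq of 25.5 (24.1 to 27.6) and CCP110 of 25.1 (23.4 to 26.2), well within the range of the panel. The mean Cq of the reference genes ranged between 23.0 and 24.5 over the samples. Replicates of a condition had an SD of 0.12 for CENPE, the second lowest of 61 genes, and of 0.20 for CCP110, equal to the panel median of 0.20. The standard error of every log2 fold change was 0.13 for CENPE and 0.20 for CCP110. In such bulk RNA, fewer cells in a stage of the cycle and less RNA per cell cannot be told apart.

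Some Cq values were repeated between samples. The EtOH and acetonitrile vehicles had 50 of 61 Cq values in common in each replicate, including those of CENPE. In replicate 2, DMSO and medium had 11 of 61 in common, including that of CCP110. In replicate 1, MeOH had 19 of 61 in common with EtOH and with acetonitrile, and cisplatin 12 of 61 with colchicine. None of these were values of CENPE or CCP110. Pairs were compared only within a replicate number, and those outside these 6 blocks shared at most 4. The repeated CENPE values of EtOH and acetonitrile concern colchicine, antimycin A, tunicamycin and thapsigargin. The repeated CCP110 value concerns the 14 treatments in DMSO or medium. Which sample the repeated values came from cannot be told apart.

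Over the 58 treated samples CENPE lay between -3.82 and -0.96, against -2.12 to -1.11 over 18 vehicle samples (median -1.66). CCP110 lay between -2.53 and -0.14 in treated samples, against -2.27 to -1.16 in vehicle samples (median -1.72). Both genes thus spread more widely among treatments than among vehicles. The H2O vehicle, in which 43 of 61 genes (70.5%) differed from the mean of the 8 other vehicles, differed by -0.19 for CENPE (adjusted p = 0.0750) and by -0.09 for CCP110 (adjusted p = 0.586).

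**Figure D1:**
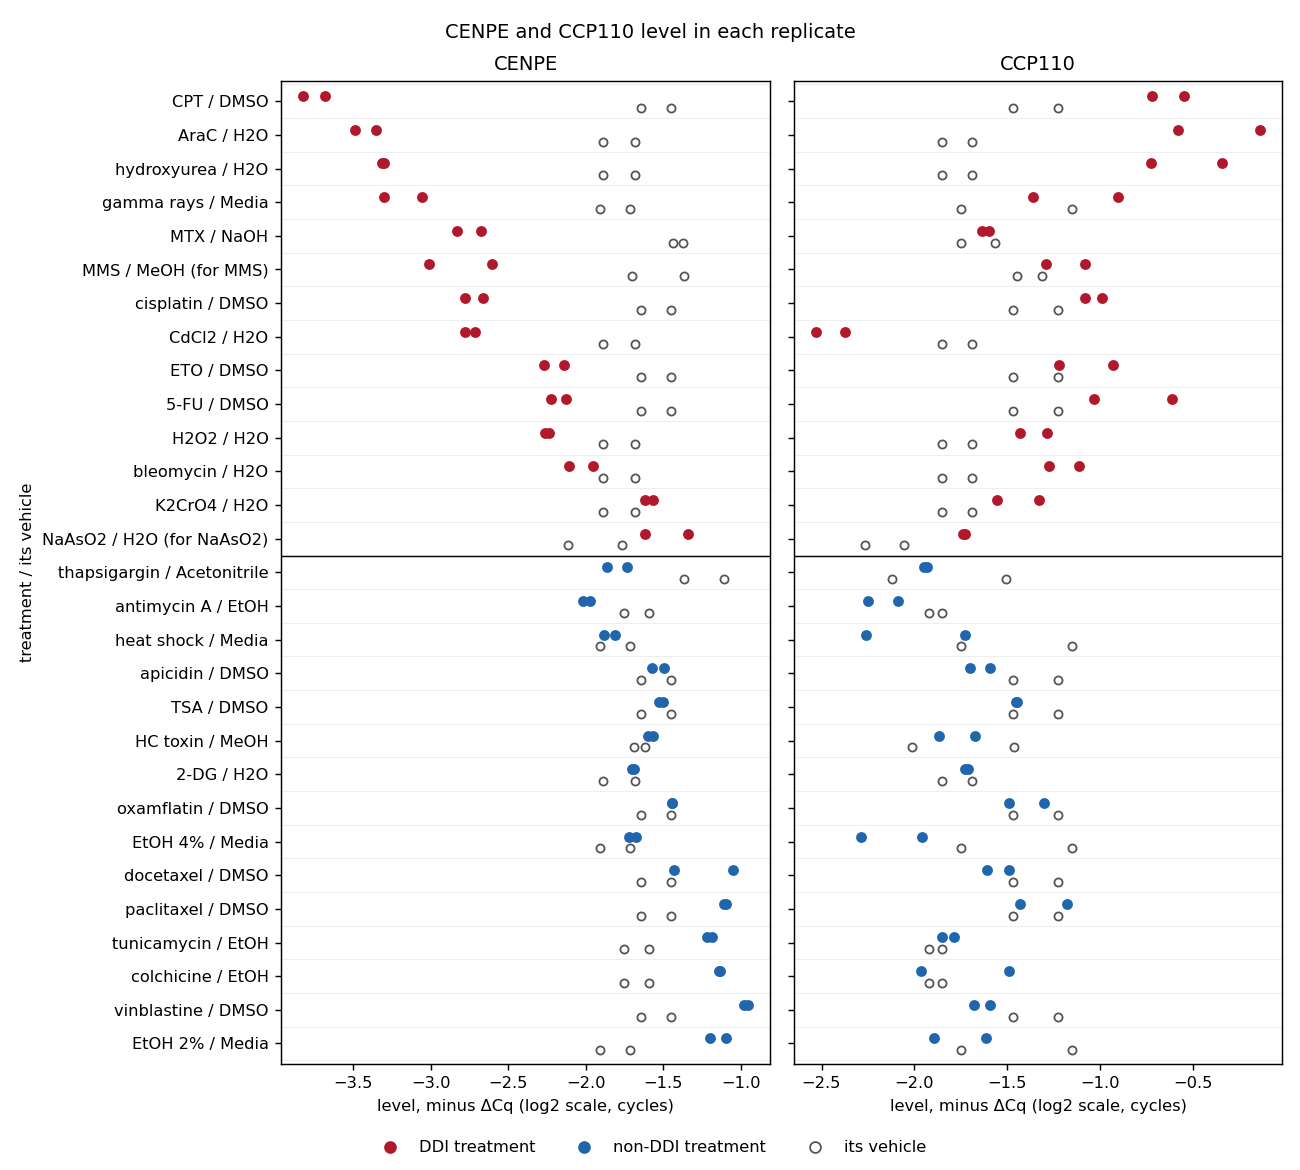
Level of CENPE (left) and CCP110 (right) as minus ΔCq, in cycles on a log2 scale, for each of 29 treatments named with its vehicle. Filled points are the 2 treated replicates (upper in each row; DDI above the line, non-DDI under it), and open points the 2 replicates of the vehicle. CENPE in CPT, at -3.68 and -3.82, lay farthest below its vehicle, and CCP110 in AraC, at -0.14 and -0.59, farthest above.

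CENPE fell in 12 treatments, rose in 6 and was not called in 11. Over all genes and treatments tested, 13.5% of log2 fold changes were called lower and 29.8% higher. Of the 12 falls, 11 belonged to DDI treatments and 1 to thapsigargin, whose vehicle held repeated CENPE values. Of the 6 rises, 5 belonged to non-DDI treatments and 1 to NaAsO2. Treated and vehicle replicates did not overlap in 24 of 29 treatments for CENPE, against 68.2% of all gene and treatment pairs.

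The replication blockers gave some of the lowest CENPE levels of the study. In AraC, CENPE stood at -3.35 and -3.49, against -1.89 and -1.68 in H2O, a log2 fold change of -1.63 (fold 0.323, adjusted p = 2.70e-15). In hydroxyurea the levels were -3.30 and -3.32, a log2 fold change of -1.52 against the same H2O samples (fold 0.348, adjusted p = 2.61e-14). The agents lowered CENPE to a like extent, with all treated replicates below all vehicle replicates. Genes called lower made up 16.4% of the panel in AraC and 14.8% in hydroxyurea, and CENPE ranked 5th lowest of 61 in AraC and 4th in hydroxyurea, where the panel medians were 1.27 and 1.21.

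CPT, which traps topoisomerase I on DNA, lowered CENPE most. The levels were -3.68 and -3.82 in CPT, against -1.64 and -1.45 in DMSO, and the log2 fold change was -2.21 (fold 0.217, adjusted p = 1.81e-19, with 11.5% of genes called lower). ETO, which acts on topoisomerase II, gave -2.14 and -2.27 against the same DMSO samples, a log2 fold change of -0.66 (adjusted p = 2.45e-05, with 16.4% called lower). Replicates of the topoisomerase inhibitors did not overlap, and their log2 fold changes lay further apart than those of AraC and hydroxyurea.

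Gamma rays gave CENPE levels of -3.06 and -3.30, against -1.91 and -1.72 in medium, and a log2 fold change of -1.37 (fold 0.388, adjusted p = 2.27e-12, with 18.0% of genes called lower), the 3rd lowest of 61 genes. The other agents that break strands, bleomycin and H2O2, both in H2O, had weaker values. CENPE stood at -2.27 and -2.24 in H2O2 (log2 fold change -0.47, adjusted p = 0.00107, with 18.0% of genes called lower) and at -2.11 and -1.96 in bleomycin (log2 fold change -0.25, adjusted p = 0.0822), which was not called. The bleomycin value depended on the reference and vehicle: it was called lower with GUSB alone (-0.47, adjusted p = 0.00901), with the panel median as reference (-1.27, adjusted p = 5.49e-09), against the mean of all 9 vehicles (-0.41, adjusted p = 2.18e-04) or of the 8 other vehicles (-0.43, adjusted p = 1.37e-04), and without H2O replicate 1 (-0.35, adjusted p = 0.0473). The call in H2O2 was lost with HPRT alone (-0.28, adjusted p = 0.0764). Replicates of both agents lay below those of H2O, where CENPE was at -1.89 and -1.68.

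MTX, an antifolate that depletes nucleotide precursors, lowered CENPE in a treatment with few calls. CENPE was at -2.68 and -2.83 in MTX, against -1.37 and -1.44 in NaOH, a log2 fold change of -1.35 (fold 0.392, adjusted p = 1.22e-11), the smallest p-value of the panel in that treatment. By log2 fold change CENPE ranked 9th lowest of 61 in MTX. Only 4 of 61 genes were called in MTX, 3 of them lower (4.92%) and 1 higher (1.64%). Besides CENPE these were the replication-dependent histone genes HIST1H2BI (log2 fold change -2.02, adjusted p = 0.0397) and HIST1H2BG (-1.81, adjusted p = 6.97e-06) and, higher, DAAM1, a formin of Wnt signalling (0.77, adjusted p = 0.0242). 5-FU, which inhibits thymidylate synthase, gave CENPE levels of -2.13 and -2.23 against -1.64 and -1.45 in DMSO, a log2 fold change of -0.63 (adjusted p = 5.27e-05, with 9.84% of genes called lower).

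Alkylating and platinating agents followed the same direction. MMS gave CENPE levels of -2.61 and -3.01, against -1.37 and -1.70 in its MeOH vehicle (log2 fold change -1.28, adjusted p = 1.12e-11, with 21.3% of genes called lower). Cisplatin gave -2.78 and -2.66, against -1.64 and -1.45 in DMSO (log2 fold change -1.18, adjusted p = 1.40e-10, with 14.8% called lower). Neither overlapped its vehicle. The metals did not move CENPE alike: CdCl2 lowered it to -2.78 and -2.72, against -1.89 and -1.68 in H2O (log2 fold change -0.96, adjusted p = 2.19e-08, with 31.1% called lower), K2CrO4 gave -1.62 and -1.57 (log2 fold change 0.19, adjusted p = 0.199), and NaAsO2 gave -1.34 and -1.62, against -2.12 and -1.77 in its own H2O samples (log2 fold change 0.46, adjusted p = 0.00159, with 57.4% called higher). With HPRT alone CENPE in K2CrO4 was called higher (0.39, adjusted p = 0.0179), and with the panel median as reference it was called lower (-0.48, adjusted p = 0.0138). The rise in NaAsO2 was not called with HPRT as the only reference gene (log2 fold change 0.08, adjusted p = 0.807). Nor was it called against the mean of all 9 vehicles (0.14, adjusted p = 0.227). Its paired log2 fold changes were 0.775 and 0.145, and it was 0.32 without NaAsO2 replicate 1 and 0.285 without replicate 1 of its H2O samples.

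Among the antimitotics CENPE ran the other way. Vinblastine gave the highest CENPE levels of the 38 conditions, -0.96 and -0.98, against -1.64 and -1.45 in DMSO, a log2 fold change of 0.58 (fold 1.49, adjusted p = 8.61e-04, with 9.84% of genes called higher). Colchicine gave -1.14 and -1.14, against -1.75 and -1.59 in EtOH, a log2 fold change of 0.53 (fold 1.45, adjusted p = 0.00197, with 11.5% called higher). Paclitaxel gave -1.11 and -1.10 against the DMSO samples, a log2 fold change of 0.44 (fold 1.36, adjusted p = 0.0334, with 3.28% called higher). All replicates of these agents lay above those of their vehicles.

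Docetaxel gave CENPE levels of -1.43 and -1.05, both above DMSO, with a log2 fold change of 0.31 (adjusted p = 0.304), and no gene of the panel was called in docetaxel (0% in either direction). Against the mean of all 9 vehicles CENPE was called there (0.38, adjusted p = 0.00464). CENPE ranked 3rd highest of 61 in docetaxel and paclitaxel and 6th in vinblastine and colchicine. The taxanes share a core ring system and differ in the side chain and in an acetyl group on the ring, and they were run at the same dose and time in the same vehicle, so they form the 1 matched pair of related compounds compared. Docetaxel minus paclitaxel was -0.14 for CENPE (95% CI -0.39 to 0.12, adjusted p = 0.991) and -0.24 for CCP110 (95% CI -0.65 to 0.17, adjusted p = 0.991), so no difference was detected with 2 replicates each, and for CENPE neither a gap of -0.39 nor one of 0.12 lies outside the interval. The call for paclitaxel was lost without either 1 of its replicates, without DMSO replicate 1, and under either reference gene alone, with log2 fold changes of 0.35 to 0.47 in all of these. It was also lost with the panel median as reference (0.495, adjusted p = 0.0965). With only genes of a mean Cq under 32, it was lost at an unchanged log2 fold change (0.44, adjusted p = 0.0639).

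Other non-DDI treatments moved CENPE in both directions. EtOH at 2% gave the largest rise, with levels of -1.10 and -1.20 against -1.91 and -1.72 in medium (log2 fold change 0.67, fold 1.59, adjusted p = 3.28e-05, with 24.6% of genes called higher). EtOH at 4% gave -1.68 and -1.72 (log2 fold change 0.12, adjusted p = 0.545). EtOH at 4% minus EtOH at 2% was -0.55 for CENPE (95% CI -0.81 to -0.30, adjusted p = 6.88e-04, 16.4% of genes called lower), so the higher dose had the lower CENPE level.

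Tunicamycin, which blocks protein N-glycosylation, gave CENPE levels of -1.22 and -1.19 against -1.75 and -1.59 in EtOH (log2 fold change 0.47, adjusted p = 0.00340, with 18.0% of genes called higher). That call was lost without EtOH replicate 1 (0.39, adjusted p = 0.0814) and with the panel median as reference (0.37, adjusted p = 0.0864). Thapsigargin, which empties the calcium store of the endoplasmic reticulum, gave -1.73 and -1.86 against -1.11 and -1.37 in acetonitrile (log2 fold change -0.56, adjusted p = 3.27e-04, with 34.4% called lower). The acetonitrile samples had the highest CENPE levels of the vehicles. Their CENPE Cq values were the repeated ones, 25.07 and 24.89, equal to those of EtOH. Their higher levels thus came from the reference genes alone, with mean Cq values of 23.96 and 23.525 against 23.32 and 23.30 in EtOH. Against the mean of all 9 vehicles thapsigargin had a log2 fold change of -0.18 (adjusted p = 0.113), and with the panel median as reference one of -0.11 (adjusted p = 0.665). Antimycin A, an inhibitor of mitochondrial electron transport, gave -1.97 and -2.02 against the EtOH samples (log2 fold change -0.33, adjusted p = 0.0510), and it was called with the replicates as a block (adjusted p = 0.0243).

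The histone deacetylase inhibitors left CENPE near DMSO or MeOH. Levels were -1.44 and -1.45 in oxamflatin, -1.53 and -1.50 in TSA and -1.57 and -1.50 in apicidin, against -1.64 and -1.45 in DMSO, and -1.60 and -1.57 in HC toxin, against -1.69 and -1.62 in MeOH. Their log2 fold changes of 0.01 to 0.10 did not pass the test. Neither did 2-DG at -1.70 and -1.69 (log2 fold change 0.09) nor heat shock at -1.88 and -1.81 (log2 fold change -0.03).

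In the order of CENPE levels over 38 conditions, CPT was lowest with a mean of -3.75, followed by AraC at -3.42 and hydroxyurea at -3.31, and the replicates of these 3 neighbours did not overlap. Hydroxyurea overlapped gamma rays at -3.18. Gamma rays were set apart from MMS at -2.81 by a gap of 0.37, and MMS, MTX, CdCl2 and cisplatin overlapped as neighbours. A gap of 0.47 separated cisplatin at -2.72 from H2O2 at -2.25. At the upper end vinblastine, with a mean of -0.97, did not overlap paclitaxel at -1.10, and paclitaxel did not overlap colchicine at -1.14. These gaps were small, 0.135 and 0.035, as was that of 0.11 between AraC and hydroxyurea. The standard error of a difference between conditions was 0.13, and the order of neighbours was not tested.

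**Figure D2:**
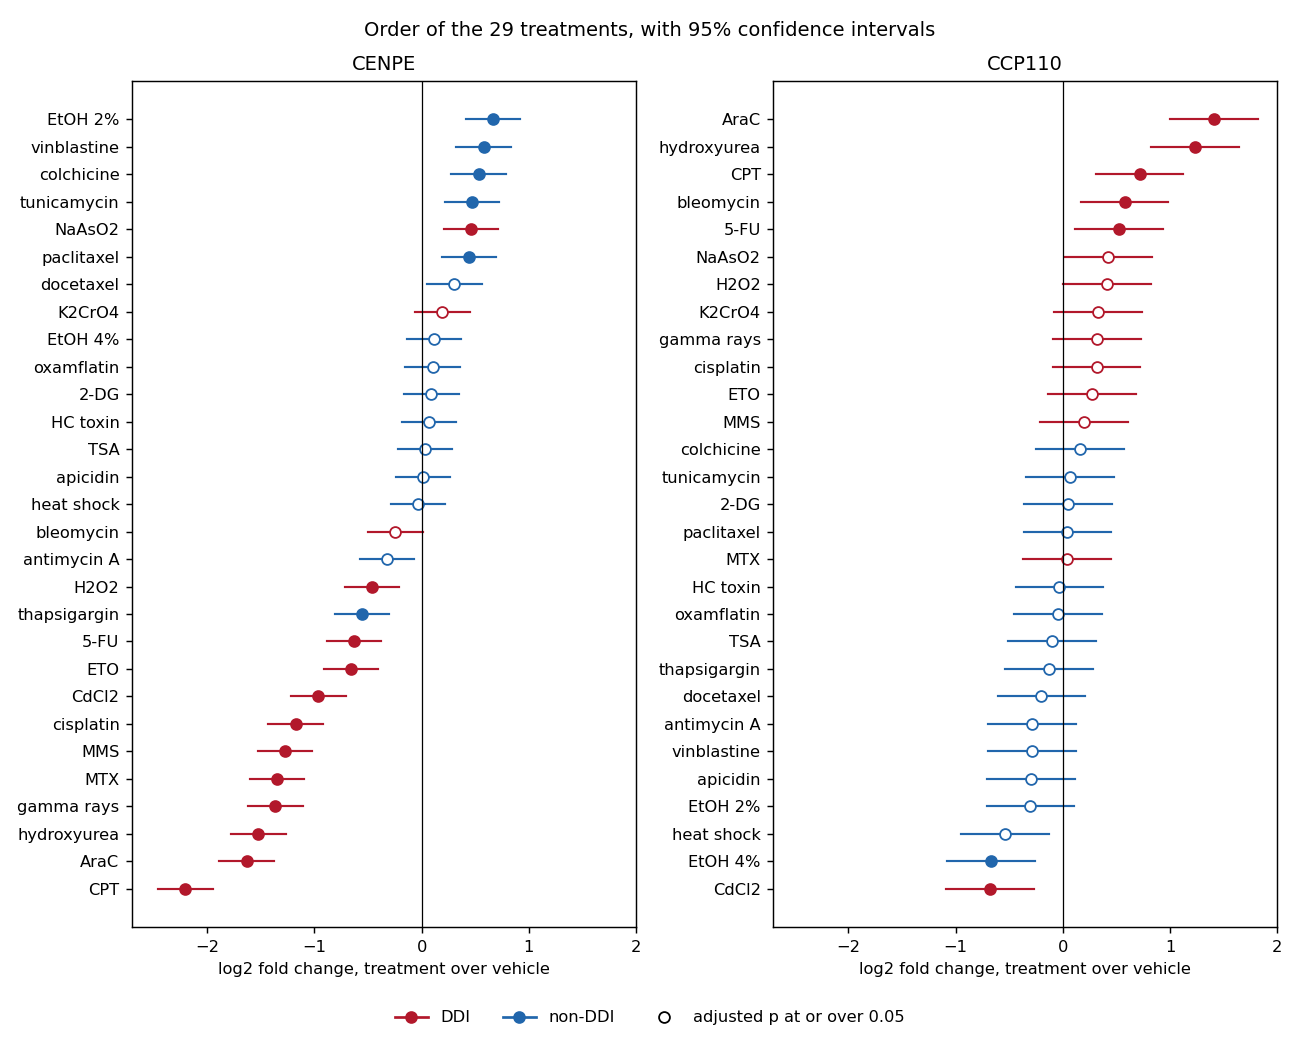
Log2 fold change of CENPE (left) and CCP110 (right) in 29 treatments, treatment over its own vehicle, ordered from highest to lowest. Bars are 95% confidence intervals from limma, DDI in red and non-DDI in blue, and open points were not called. CENPE spanned -2.21 to 0.67 and CCP110 -0.68 to 1.41.

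CCP110 rose in 5 treatments, fell in 2 and was not called in 22. Against the panel shares of 29.8% called higher and 13.5% called lower, these are 5 and 2 of 29 treatments, a difference that was not tested, and against the mean of all 9 vehicles CCP110 rose in 9. Its SD over the 29 log2 fold changes was 0.49, against 0.78 for CENPE and a panel median of 0.82. All 5 rises belonged to DDI treatments. Treated and vehicle replicates did not overlap in 17 of 29 treatments, against 68.2% of all gene and treatment pairs.

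The replication blockers gave the highest CCP110 levels of the 38 conditions. In AraC, CCP110 stood at -0.14 and -0.59, against -1.69 and -1.85 in H2O, a log2 fold change of 1.41 (fold 2.65, adjusted p = 3.73e-08, with 65.6% of genes called higher). In hydroxyurea the levels were -0.73 and -0.35, a log2 fold change of 1.23 against the same H2O samples (fold 2.35, adjusted p = 6.03e-07, with 67.2% called higher). All treated replicates lay above H2O, and those of AraC and hydroxyurea overlapped each other. These values were near the middle of the panel, which had medians of 1.27 in AraC and 1.21 in hydroxyurea, and CCP110 ranked 27th and 30th highest of 61.

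CPT gave CCP110 levels of -0.72 and -0.55, against -1.23 and -1.47 in DMSO (log2 fold change 0.72, fold 1.64, adjusted p = 0.00182, with 57.4% of genes called higher and a panel median of 0.67). 5-FU gave -0.62 and -1.04 against the same DMSO samples (log2 fold change 0.53, adjusted p = 0.0217, with 54.1% called higher). Bleomycin gave -1.12 and -1.28, against -1.69 and -1.85 in H2O (log2 fold change 0.58, adjusted p = 0.0113, with 50.8% called higher). The replicates of all 3 lay above their vehicles. Calls in 5-FU and bleomycin did not hold with GUSB as the only reference gene (log2 fold changes 0.36 and 0.36, adjusted p = 0.135 each). The call in 5-FU was also lost without 5-FU replicate 1 (0.32, adjusted p = 0.298) or DMSO replicate 2 (0.41, adjusted p = 0.155), and that in bleomycin without bleomycin replicate 1 (0.50, adjusted p = 0.0761) or H2O replicate 2 (0.50, adjusted p = 0.0796). With the panel median as reference only AraC kept a CCP110 call among the 5, with values of 0.42 in hydroxyurea (adjusted p = 0.0501), 0.16 in CPT (adjusted p = 0.544), 0.22 in 5-FU (adjusted p = 0.358) and -0.45 in bleomycin (adjusted p = 0.0508).

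CCP110 fell in CdCl2, to -2.53 and -2.38, against -1.69 and -1.85 in H2O (log2 fold change -0.68, fold 0.623, adjusted p = 0.00439, with 31.1% of genes called lower), and with HPRT alone this call was lost (-0.44, adjusted p = 0.0939). EtOH at 4% gave -2.29 and -1.96, against -1.75 and -1.16 in medium (log2 fold change -0.67, fold 0.629, adjusted p = 0.0120, with 14.8% called lower). The medium samples differed by about as much as the fall itself, and without medium replicate 2 the log2 fold change was -0.37 (adjusted p = 0.343), while without EtOH 4% replicate 1 it was -0.51 (adjusted p = 0.150). EtOH at 2% stood at -1.90 and -1.62 (log2 fold change -0.30, adjusted p = 0.291), a value called without medium replicate 1 (-0.60, adjusted p = 0.0473), and EtOH at 4% minus EtOH at 2% was -0.37 (95% CI -0.78 to 0.04, adjusted p = 0.174).

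Several DDI treatments had CCP110 values above their vehicles without a call. NaAsO2 stood at -1.73 and -1.74, against -2.27 and -2.06 in its own H2O samples (log2 fold change 0.43, adjusted p = 0.0626), and H2O2 at -1.44 and -1.29, against -1.69 and -1.85 in H2O (log2 fold change 0.41, adjusted p = 0.0657). Both were called with the replicates as a block (adjusted p = 0.0489 and 0.0496). They also depended on the reference gene, in opposite ways. NaAsO2 was called with GUSB alone (0.805, adjusted p = 5.63e-04) and H2O2 with HPRT alone (0.60, adjusted p = 0.0179), and neither with the other gene alone. In gamma rays the replicates gave -0.91 and -1.36, against -1.75 and -1.16 in medium, so that the paired log2 fold changes were 0.85 and -0.21 and their mean of 0.32 (adjusted p = 0.169) rests on replicates that went opposite ways. It was called without medium replicate 2 (0.62, adjusted p = 0.0202) or gamma rays replicate 2 (0.55, adjusted p = 0.0469).

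K2CrO4 gave CCP110 levels of -1.33 and -1.56 against the H2O samples (log2 fold change 0.33, adjusted p = 0.187). Cisplatin gave -1.08 and -0.99 and ETO -1.22 and -0.93, against -1.23 and -1.47 in DMSO (log2 fold changes 0.32 and 0.28, adjusted p = 0.200 and 0.231). MMS gave -1.09 and -1.29 against -1.32 and -1.45 in its MeOH vehicle (log2 fold change 0.20, adjusted p = 0.416). MTX left CCP110 at -1.64 and -1.60, between the NaOH replicates of -1.75 and -1.57 (log2 fold change 0.04, adjusted p = 0.974). Against the mean of all 9 vehicles CCP110 was called higher in gamma rays (0.56), cisplatin (0.66), ETO (0.62) and MMS (0.50).

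No antimitotic moved CCP110 past the test. Vinblastine gave CCP110 levels of -1.60 and -1.68 and docetaxel -1.49 and -1.61, both below the DMSO samples of -1.23 and -1.47 (log2 fold changes -0.29 and -0.20, adjusted p = 0.457 and 0.978). Paclitaxel gave -1.18 and -1.44 (log2 fold change 0.04, adjusted p = 0.981). Colchicine gave -1.49 and -1.97 around the EtOH samples of -1.85 and -1.92 (log2 fold change 0.16, adjusted p = 0.612).

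The remaining non-DDI treatments had CCP110 log2 fold changes between -0.54 and 0.07, none called. Heat shock was the lowest, at -2.26 and -1.73 against -1.75 and -1.16 in medium (log2 fold change -0.54, adjusted p = 0.216), and it was called without medium replicate 1 (-0.84, adjusted p = 0.0211) or heat shock replicate 2 (-0.81, adjusted p = 0.0352). Antimycin A stood at -2.09 and -2.25 and tunicamycin at -1.85 and -1.79, against -1.85 and -1.92 in EtOH. Apicidin stood at -1.70 and -1.60, oxamflatin at -1.49 and -1.31 and TSA at -1.46 and -1.45, against the DMSO samples, of which apicidin alone did not overlap them. HC toxin stood at -1.87 and -1.68 against -2.02 and -1.47 in MeOH, thapsigargin at -1.93 and -1.95 against -2.12 and -1.51 in acetonitrile, and 2-DG at -1.73 and -1.71 against -1.69 and -1.85 in H2O.

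In the order of CCP110 levels AraC (mean -0.36), hydroxyurea (-0.54), CPT (-0.64) and 5-FU (-0.83) led, each overlapping the next. CdCl2 was lowest at -2.45 and did not overlap antimycin A, the next condition at -2.17.

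Read together, CENPE fell and CCP110 rose in 4 treatments, AraC, hydroxyurea, CPT and 5-FU. Both fell in CdCl2. CENPE fell without a call of CCP110 in 7 treatments and rose without one in 6, CCP110 alone was called in bleomycin (higher) and EtOH at 4% (lower), and neither was called in 9. No treatment raised both genes or raised CENPE with a fall of CCP110.

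**Figure D3:**
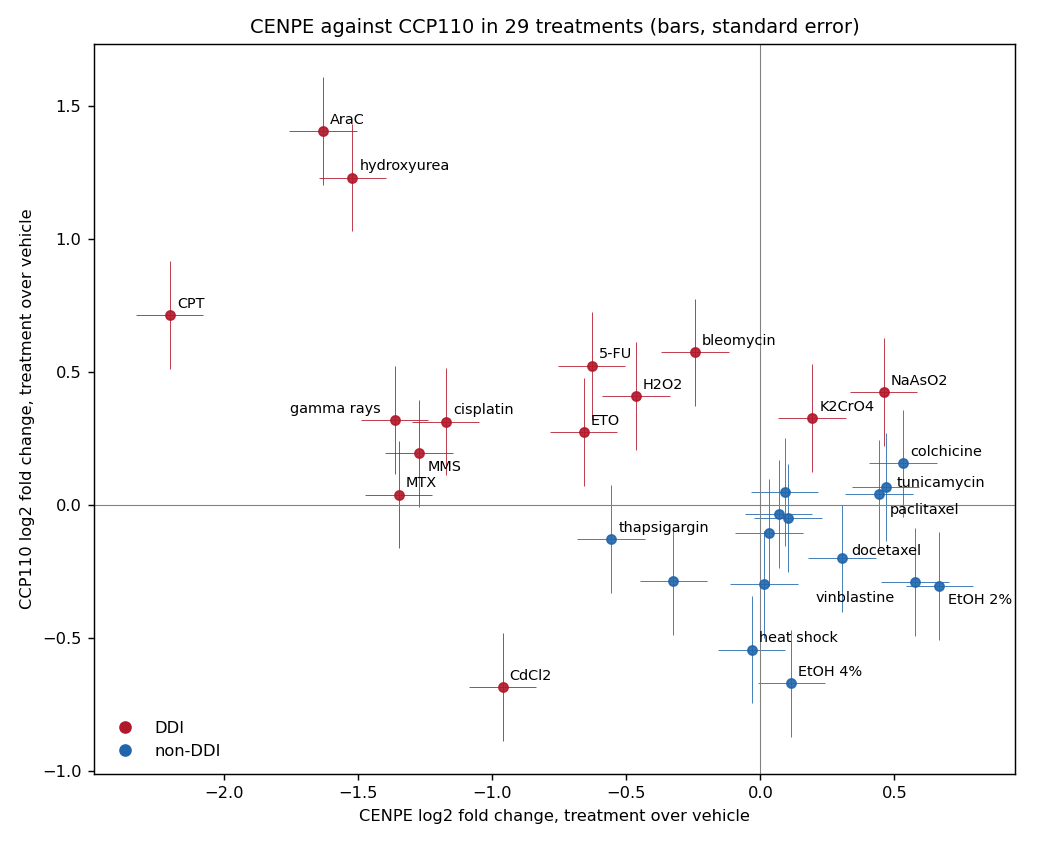
CENPE log2 fold change (horizontal) against CCP110 log2 fold change (vertical), treatment over its own vehicle, for 29 treatments, DDI in red and non-DDI in blue, with standard errors as bars. AraC, hydroxyurea and CPT lie at the upper left and CdCl2 at the lower left, whereas the antimitotics lie at CENPE values of 0.31 to 0.58 with CCP110 values of -0.29 to 0.16.

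Over the 38 conditions the mean levels of CENPE and CCP110 had a Pearson r of -0.56 and a Spearman rho of -0.36, and r was -0.37 without CPT and AraC. The points share the reference genes of a sample, and r between log2 fold changes was -0.26 within the 14 DDI and 0.21 within the 15 non-DDI treatments.

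The difference between the genes inside a sample needs no reference gene. CENPE minus CCP110 (the Cq of CCP110 minus that of CENPE) was -3.21 and -2.90 in AraC and -2.57 and -2.97 in hydroxyurea, against -0.20 and 0.17 in H2O, changes of -3.04 and -2.76. In CPT it was -2.96 and -3.27, against -0.41 and 0.02 in DMSO, a change of -2.92. At the other end were EtOH at 2% with a change of 0.97 and vinblastine with 0.87. The median change was -1.27 over DDI treatments, of which 13 of 14 lay below 0, and 0.38 over non-DDI treatments, of which 2 of 15 (thapsigargin and antimycin A) lay below 0. The exception among the DDI treatments was NaAsO2 at 0.04.

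Setting antimitotics against replication blockers asked whether agents that stop cells in mitosis and agents that stop DNA synthesis move these genes apart. Antimitotics had a mean CENPE log2 fold change of 0.46 ± 0.12 (SD, n = 4 agents) and replication blockers of -1.58 ± 0.08 (SD, n = 2 agents). The difference of 2.04 (95% CI 1.76 to 2.32, adjusted p = 5.17e-17) was the 2nd highest of 61 genes, in a comparison in which 14.8% of genes were called higher and 68.9% lower. For CCP110 the means were -0.07 ± 0.21 in antimitotics and 1.32 ± 0.12 in replication blockers, a difference of -1.39 (95% CI -1.84 to -0.95, adjusted p = 2.98e-07). That value was the panel median, -1.39, so CCP110 moved as the middle gene of the panel did and CENPE against it. The intervals and p-values of comparisons between these agent sets rest on the spread between replicates, with the agents taken as fixed. They do not measure the spread between agents.

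With the median of the panel as reference, the difference for CENPE was 3.00 and that for CCP110 was -0.43 (adjusted p = 0.0639), no longer called. The sets have different vehicles, and from the treated levels alone, with no vehicle, the differences were 2.25 for CENPE and -1.11 for CCP110. Without colchicine, whose EtOH vehicle held repeated Cq values, they were 2.02 and -1.47.

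**Figure D4:**
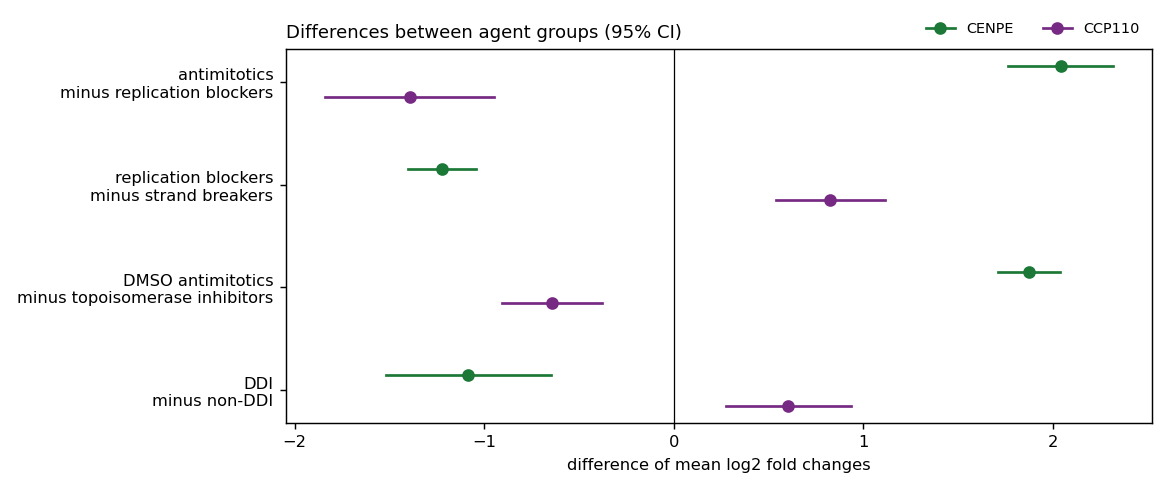
Differences between mean log2 fold changes of agent groups (horizontal axis, log2 scale) for CENPE (green) and CCP110 (purple), with 95% confidence intervals from limma. The intervals cover the spread between replicates with agents fixed, except for DDI minus non-DDI, where treatments are the replicates. In each comparison the genes lie on opposite sides of 0, with CENPE at 2.04 and CCP110 at -1.39 for antimitotics minus replication blockers.

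Within 1 vehicle, replication blockers were set against the strand breakers bleomycin and H2O2, all in H2O, so that the vehicle cancels. CENPE had means of -1.58 in replication blockers and -0.36 in strand breakers, a difference of -1.22 (95% CI -1.40 to -1.04, adjusted p = 4.40e-15, with 11.5% of genes called lower). CCP110 had means of 1.32 in replication blockers and 0.49 in strand breakers, a difference of 0.83 (95% CI 0.54 to 1.12, adjusted p = 2.79e-06, with 57.4% called higher). AraC and hydroxyurea thus had lower CENPE and higher CCP110 levels than bleomycin and H2O2 at these doses. Gamma rays, which also break strands but were run in medium, were not in this comparison, and their CENPE log2 fold change of -1.37 lay close to the -1.52 of hydroxyurea.

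Within DMSO, vinblastine, paclitaxel and docetaxel were set against CPT and ETO. CENPE had means of 0.44 ± 0.14 (SD, n = 3 agents) in the antimitotics and -1.43 ± 1.09 (SD, n = 2 agents) in the topoisomerase inhibitors, a difference of 1.87 (95% CI 1.71 to 2.04, adjusted p = 3.42e-23, with 14.8% of genes called higher). CPT and ETO differed widely, and the difference was 2.65 against CPT alone and 1.10 against ETO alone. Both values lie outside the interval, which covers the spread between replicates and not that between agents. CCP110 had means of -0.15 ± 0.17 in the antimitotics and 0.50 ± 0.31 in the topoisomerase inhibitors, a difference of -0.64 (95% CI -0.91 to -0.38, adjusted p = 2.49e-05, with 59.0% called lower), and of -0.18 (adjusted p = 0.213) with the panel median as reference.

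**Figure D5:**
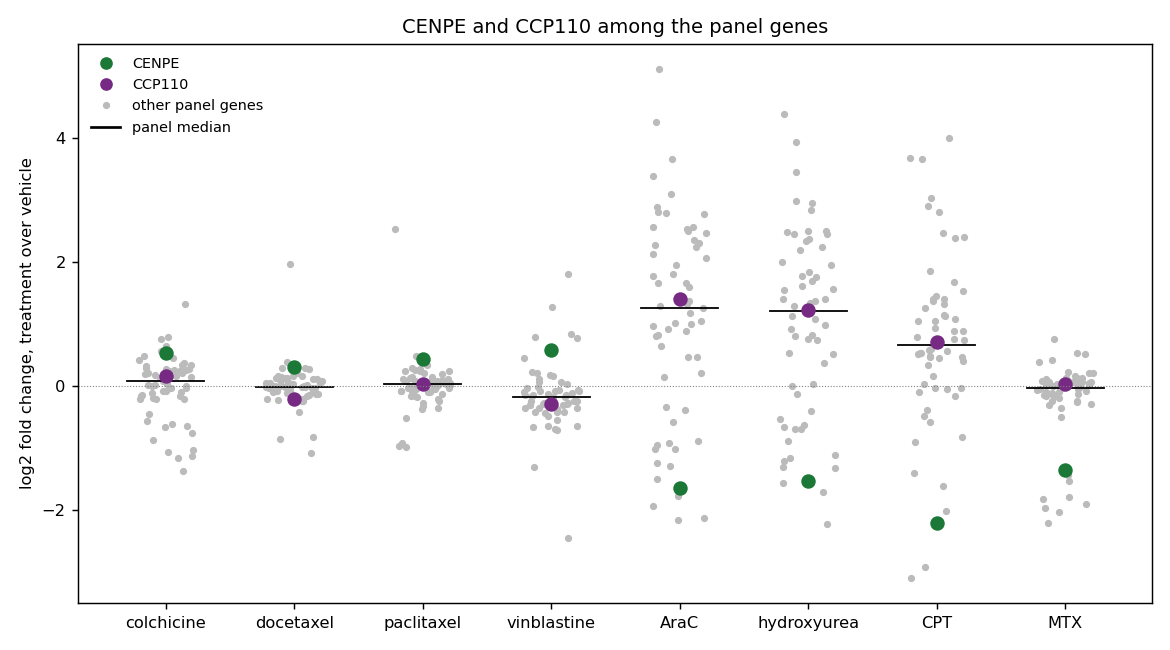
Log2 fold change over vehicle (vertical axis) of CENPE (green), CCP110 (purple) and the other 59 panel genes (grey) in the antimitotics, the replication blockers, CPT and MTX, with the panel median as a black line. CCP110 sits close to the panel median in AraC, hydroxyurea and CPT (1.27, 1.21 and 0.67), and CENPE lies in the lower tail there and above the median in the antimitotics.

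Over the whole set, CENPE averaged -0.92 ± 0.74 in DDI treatments (SD, n = 14) and 0.17 ± 0.34 in non-DDI treatments (SD, n = 15), a difference of -1.08 (95% CI -1.52 to -0.65, adjusted p = 5.35e-05, with 18.0% of genes called lower). CCP110 averaged 0.43 ± 0.50 in DDI and -0.17 ± 0.23 in non-DDI treatments, a difference of 0.61 (95% CI 0.28 to 0.94, adjusted p = 0.00132, with 57.4% called higher). The classes overlapped in both genes: CENPE ranged between -2.21 and 0.46 in DDI and between -0.56 and 0.67 in non-DDI treatments, and CCP110 between -0.68 and 1.41 in DDI and between -0.67 and 0.16 in non-DDI treatments. Treatments are the replicates of this comparison and several share a vehicle. Within the 10 DMSO treatments alone the differences were -1.41 for CENPE and 0.61 for CCP110 (adjusted p = 0.00287 and 0.00393), and with the panel median as reference CCP110 differed by 0.10 (adjusted p = 0.538).

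Other cell cycle genes of the panel were read beside the members. The list held CDKN1A (the inhibitor p21), E2F7 and E2F8 (repressing E2F factors), GADD45A, BTG2, PLK3 and SERTAD1. All 7 rose in AraC (median 2.24, panel median 1.27), in hydroxyurea (median 1.85, panel median 1.21) and in CPT (median 2.81, panel median 0.67). Over the panel 65.6%, 67.2% and 57.4% of genes were called higher in AraC, hydroxyurea and CPT. For CDKN1A the log2 fold changes were 2.79 in AraC, 2.49 in hydroxyurea and 2.39 in CPT, and for PLK3, a polo-like kinase of the stress response, 2.78 in AraC, 2.51 in hydroxyurea and 3.04 in CPT. In MTX, where CENPE fell by 1.35 on the log2 scale, 0 of the 7 were called (median -0.01, panel median -0.04). Few genes of the whole panel were called in MTX, 1.64% higher and 4.92% lower. In docetaxel and paclitaxel 0 of 7 were called, and in vinblastine and colchicine 1 of 7, the antiproliferative gene BTG2 (log2 fold changes 0.79 and 0.76). The panel shares called higher were 0% in docetaxel, 3.28% in paclitaxel, 9.84% in vinblastine and 11.5% in colchicine. In antimitotics minus replication blockers all 7 were lower (median -2.24, panel median -1.39, with 68.9% of genes called lower), opposite to CENPE.

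The 8 replication-dependent histone genes, which are transcribed in S phase, gave few calls. Their standard errors lay between 0.29 (HIST1H2BG) and 0.88 (HIST1H2BC), against 0.13 for CENPE. In MTX, HIST1H2BC was not called at a log2 fold change of -2.195 (adjusted p = 0.114), so few calls do not show small changes. In AraC 1 of 8 fell (HIST1H2BM, log2 fold change -1.93, list median -0.96, panel median 1.27, with 16.4% of genes called lower). In hydroxyurea 0 of 8 were called (median -0.67, panel median 1.21, with 67.2% of genes called higher and 14.8% lower). In MTX 2 of 8 fell (median -1.86, panel median -0.04, with 4.92% called lower). HIST1H2BG fell in paclitaxel, vinblastine and colchicine (log2 fold changes -0.91, -2.44 and -1.15) and no histone gene rose in an antimitotic. Such falls of HIST1H2BG were not particular to antimitotics, being larger in EtOH at 4% (-3.73), gamma rays (-3.67) and tunicamycin (-3.19). It was called higher in K2CrO4 (2.09), HC toxin (1.39), bleomycin (1.02) and oxamflatin (0.85). In replication blockers minus strand breakers 4 of 8 were lower (median -0.93, panel median 0.52, with 11.5% of genes called lower).

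By Pearson correlation of mean levels over 38 conditions, the genes most like CENPE were LRRFIP2 (0.72), CBLB (0.71), RAPGEF2 (0.66), HIST1H2BM (0.64) and DAAM1 (0.63), with 0.70, 0.72, 0.71, 0.63 and 0.60 between log2 fold changes over 29 treatments. The least like were LCE1E (-0.75), PLK3 (-0.74) and PRKAB1 (-0.72). Those most like CCP110 were DDB2 (0.88), E2F7 (0.85), RRM2B (0.84), TP53I3 (0.84) and ITPKC (0.84), with 0.88, 0.77, 0.83, 0.82 and 0.92 between log2 fold changes, and the least like were HIST1H2BM (-0.64), HIST1H2BC (-0.59) and CENPE (-0.56). DDB2, RRM2B and TP53I3 are known targets of p53. All of these points share the reference genes of a sample, and conditions of 1 vehicle share their vehicle.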

How the data were processed

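Cq values were measured in 76 cDNA samples by TaqMan RT-qPCR on arrays of 96 wells (CFX96, 40 cycles). The deposited matrix holds the authors' Cq values, not normalized, a unit of PCR cycles that is none of counts, ratio or log expression, for 61 genes, HPRT and GUSB. The authors left out 3 of the panel genes, and where a gene had several assays, as CCP110 did, the supplement states that those kept were picked by biomarker performance. Which CCP110 assay was kept was not read here. Fold changes that the authors deposited for each treatment hold their own comparisons and were not used. Every sample column was matched to a sample by its label.

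Minus ΔCq was computed against the mean Cq of HPRT and GUSB, and amplification efficiency was taken as equal between samples. limma 3.58.1 (R 4.3.3) fitted 1 coefficient for each of 38 conditions (38 residual degrees of freedom), two-sided, with Benjamini-Hochberg adjustment over 61 genes within a comparison. DDI and non-DDI were compared with limma on 29 mean profiles. Vehicles were assigned from the study's methods. The members and gene lists were chosen with earlier results of these data known. The named genes were both members, for each the 5 most and 3 least correlated panel genes, and members of the lists. The comparisons of docetaxel with paclitaxel and of EtOH doses were added after the data were seen.

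By the study's methods the 2 replicates come from exposures made at different times, each with its solvents, so replicate numbers pair samples. As a check, deviations of treated and vehicle replicates were correlated over genes (median 0.237, range -0.718 to 0.906, above 0.1 in 19 of 29 treatments, under -0.1 in 7). In simulated data for treatments against vehicles (61 genes, 29 treatments), 41.4% of changes of 0.5 were recovered, 82.8% of 1 and 91.6% of 2 on the log2 scale, and 3.10% of calls fell on unchanged genes. Alternatives were the reference, the vehicle, the replicate block, the adjustment, the variance trend, a limit on mean Cq, left-out replicates and repeated Cq values. Promoters were matched to RefSeq (GRCh38.p14) by symbol, 2 of 2. A Cq gives no molecule count, so no counting interval was given. Figures used Python 3.11.15 and matplotlib 3.10.9.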

Additional observations from a re-analysis of the deposited data

How the results depend on the processing

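All 4 differences between agent groups kept their direction for both genes under every alternative run. Leaving out 1 sample or 1 replicate at a time gave ranges of 1.94 to 2.15 (CENPE) and -1.50 to -1.28 (CCP110) for antimitotics minus replication blockers, -1.26 to -1.19 and 0.72 to 0.94 for replication blockers minus strand breakers, 1.81 to 1.94 and -0.72 to -0.57 for DMSO antimitotics minus topoisomerase inhibitors, -1.14 to -1.03 and 0.57 to 0.64 for DDI minus non-DDI, -0.33 to 0.05 and -0.37 to -0.12 for docetaxel minus paclitaxel, and -0.60 to -0.50 and -0.53 to -0.21 for EtOH 4% minus EtOH 2%. The number of treatments called ranged between 12 and 13 (CENPE lower), 5 and 6 (CENPE higher), 4 and 6 (CCP110 higher) and 1 and 4 (CCP110 lower), the last of these at 4 without medium replicate 1 and at 1 without medium replicate 2 or EtOH 4% replicate 1.

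With the panel median as reference, which shifts log2 fold changes by -0.44 on average in DDI, 0.07 in non-DDI, -0.90 in replication blockers and 0.06 in antimitotics, CCP110 lost its calls in antimitotics minus replication blockers (-0.43), DMSO antimitotics minus topoisomerase inhibitors (-0.18) and DDI minus non-DDI (0.10) and gained one in EtOH 4% minus EtOH 2% (-0.50, adjusted p = 0.0359), CENPE rose in 3 treatments and CCP110 in 1, and 3 values turned sign, CENPE in K2CrO4 (-0.48, adjusted p = 0.0138) and NaAsO2 (-0.005) and CCP110 in bleomycin (-0.45, adjusted p = 0.0508). HPRT alone left 1 fall of CCP110, and the mean of all 9 vehicles gave 9 rises of CCP110. Leaving out any treatment with a Cq equal to one in another condition left 2 treatments for CENPE (1 lower, 1 higher) and 1 for CCP110 (0 and 0 called). Cq values are given to 2 decimals, so single equal values are common. This filter left too few treatments to judge the calls. Without the blocks of repeated values, a choice made after seeing the data, 15 treatments remained for CCP110, with 1 fall and 3 rises. These 15 are the treatments outside DMSO and medium, the vehicles that held the repeated CCP110 value. Over them DDI minus non-DDI was -0.80 for CENPE (adjusted p = 0.0735) and 0.47 for CCP110 (adjusted p = 0.219), with fewer treatments in the fit. Without the 4 treatments whose vehicle held repeated CENPE values, DDI minus non-DDI was -1.13 for CENPE (adjusted p = 2.24e-04) and 0.65 for CCP110 (adjusted p = 0.00369), both still called.

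The replicate block added calls for CENPE in antimycin A and CCP110 in H2O2 and NaAsO2 (0.0243, 0.0496 and 0.0489 as adjusted p) and changed no other call of either gene. With 2 replicates, differences of 0.5 were often missed in the simulated data, so uncalled values do not show an absence of change. The simulated shares were taken over all 61 genes, with replicates drawn independently. Recovery for CENPE or CCP110 alone was not computed.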
